A study of Bos taurus with 6 samples.

Results

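The Notch genes examined here were 3 receptors (NOTCH1, NOTCH2, NOTCH3), 3 ligands (JAG1, JAG2, DLL1) and 4 target genes (HES1, HEY1, HEY2, HEYL), chosen by name from the probe annotation of the array platform. Of these 10 genes, 9 had at least 1 of 16 named probes among the 43794 gene probes, and 8 had a probe above background that entered the comparison of 27429 genes and unnamed probes. NOTCH3 had no probe of its name and is not analysed here. The RNA came from bovine granulosa cells, the cells that line the inside of the follicle and make oestradiol. They were aspirated from pre-ovulatory follicles of multiparous Holstein cows. All cows had received gonadotropins and were coasted, with 68 hours between their last FSH injection and the aspiration. Of the animals, 3 had been given cetrotide, which blocks the receptor of gonadotropin releasing hormone and so lowers LH release, and the other 3 were controls that differed by the absence of cetrotide.

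Each of the 6 arrays carried cetrotide RNA in one dye and control RNA in the other. On slide 1 cetrotide RNA was in Cy5 and on slide 2 in Cy3, with 3 areas on each slide, so that dye and slide cannot be told apart. Arrays of the same area number were averaged, which cancels dye and slide, so that n = 3 replicates stand behind each value. All values are log2 ratios of cetrotide over control unless an intensity is named, and errors are SDs over the 3 replicates. A probe was above background for an RNA where its spot was brighter than the 95th percentile of 153 negative control spots of that array and dye. This held for 55.6% to 78% of the gene probes for cetrotide RNA and for 53.5% to 82.5% for control RNA. The number of arrays limits the precision.

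Notch signalling passes between touching cells. A ligand of the Jagged or Delta family on one cell binds a Notch receptor on its neighbour, the receptor is cut first by an ADAM protease and then by gamma-secretase, and its freed intracellular part joins the DNA-binding protein RBPJ to switch on genes of the HES and HEY families of repressors. In the mouse ovary the pathway is known for the formation of follicles, where JAG1 of the oocyte meets NOTCH2 of granulosa cells, and for the growth of vessels, where DLL4, JAG1 and NOTCH1 act.

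Among the members, JAG1 was far brighter in cetrotide RNA, HEY2 was dimmer in it, and the others lay within 0.53 of 0 on the log2 scale. No member passed limma with Benjamini-Hochberg adjustment over all features, nor did any other feature (0% called). At an unadjusted p under 0.05, limma had 1 of the 8 measured members higher with cetrotide, JAG1, beside 8% of all features, and 1 lower, HEY2, beside 6.46%. These all-feature shares come from 2193 and 1771 features. Without replicate 1, 1172 features were higher and 761 lower at that limit. The median over the 8 members was 0.23, with 7 above 0 and 1 below, against -0.01 over all features, of which 12840 were above 0 and 14589 below. HEYL, among the 7, was kept through cetrotide RNA alone, which favours a ratio above 0. The members' median was 0.40, -0.10 and 0.46 in replicates 1, 2 and 3, so that its sign differed between replicates and their SD of 0.31 exceeded its size. Above 0 on all 6 arrays was 1 member, JAG1, beside 7.86% of all features. Below 0 on all 6 arrays was 1 member, HEY2, beside 7.41%.

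**Figure D1:**
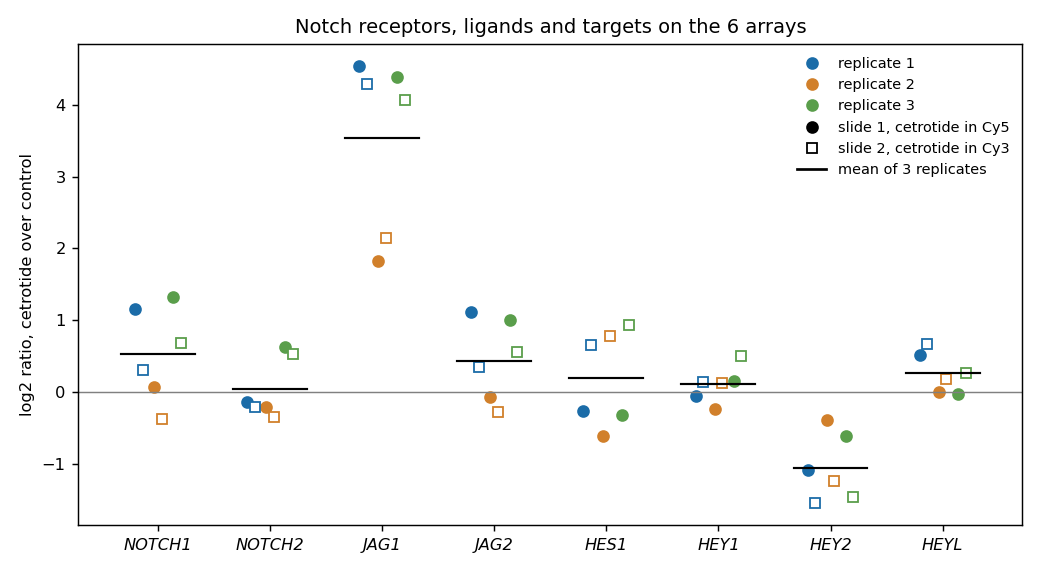
Log2 ratios of cetrotide over control on each of the 6 arrays for the probe that stands for each of the 8 measured members. Filled circles are slide 1 (cetrotide in Cy5), open squares slide 2 (cetrotide in Cy3), colours the 3 replicates and bars the mean of the replicates. All 6 values of JAG1 lie at 1.82 or above and all 6 of HEY2 below 0, while the slides lie on opposite sides of 0 for HES1.

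Of the ligands, JAG1 (Jagged 1, a membrane ligand of the Notch receptors) had the largest ratio of any member. On slide 1 its probe EMBV3_18627 had intensities of 3620, 829 and 3930 for cetrotide RNA in areas 1, 2 and 3, against 207, 378 and 333 for control RNA. On slide 2 it had 5650, 1240 and 6730 for cetrotide RNA, against 294, 267 and 406 for control RNA. The lowest cetrotide value was thus above the highest control value. These scanner values are not normalised between arrays or dyes, and the share of all features separated in this way was not counted. Area 2 was the dimmest for cetrotide RNA on both slides. Both RNAs were above background on all 6 arrays. Control RNA came closest to its limit on slide 1 area 2, with 378 against 262, and was farthest from it on slide 2 area 3, with 406 against 122.

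As ratios, JAG1 had 4.54, 1.82 and 4.39 on slide 1 and 4.29, 2.14 and 4.07 on slide 2. The mean was 3.54 ± 1.36 (SD, n = 3), or 11.6-fold, with a 95% interval of 1.73 to 5.35. Limma gave an unadjusted p of 0.00711 and an adjusted p of 0.204. The dyes changed little, with slide means of 3.58 and 3.50. Only 11 of 27429 features had a larger mean ratio. JAG1 passed when all 6 arrays were fitted together, with the dye as a term and same-area arrays tied by a random replicate block (limma adjusted p = 0.0319). In that fit 1.5% of all features passed as higher. That fit takes the consensus correlation of 0.852 between same-area arrays for all genes.

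The spread of JAG1 between replicates lay in cetrotide RNA. After normalisation its log2 level in cetrotide RNA was 12.25, 9.83 and 12.34 in replicates 1, 2 and 3, against 7.84, 7.85 and 8.11 in control RNA. The SD was 1.43 in cetrotide RNA and 0.15 in control RNA, and replicate 2 was the low one. Over all features the median SD between replicates was 0.16 in cetrotide RNA and 0.15 in control RNA.

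**Figure D2:**
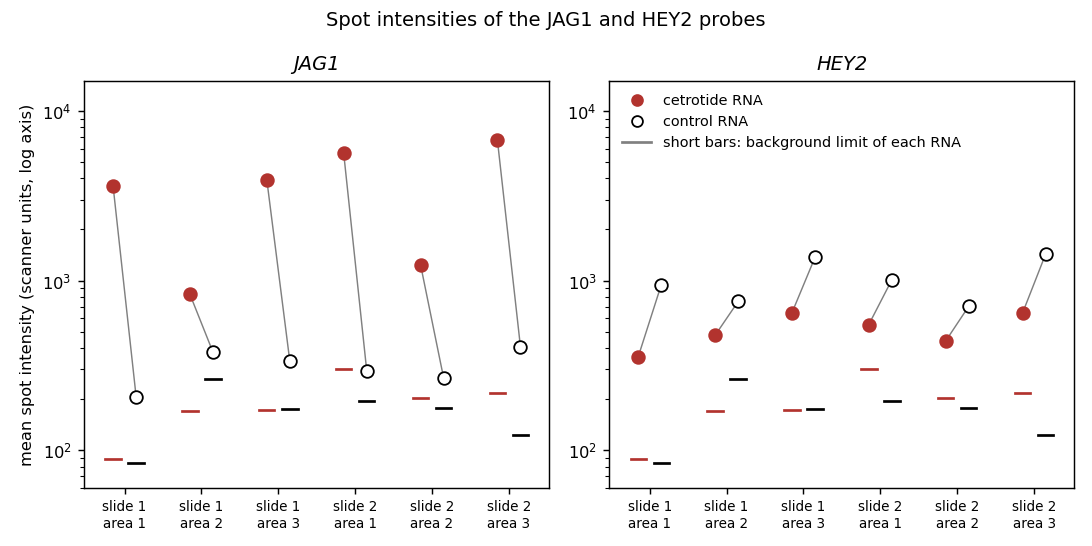
Mean spot intensity (scanner units, log axis) of JAG1 and HEY2 on each array, cetrotide RNA filled on the left of each pair and control RNA open on the right. Short bars mark the background limit of each RNA. JAG1 is brighter in cetrotide RNA and HEY2 dimmer on all 6 arrays.

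The other JAG1 probes were dim. EMBV3_36030 was above background for cetrotide RNA on 3 arrays, those of area 3 on both slides and area 1 on slide 1, and for control RNA on none. Its ratios were 0.96, 0.11 and 0.97 on slide 1 and 0.53, 0.12 and 0.99 on slide 2, positive on each array and lowest in area 2, as for the bright probe. EMBV3_19056 was above background on 1 array for cetrotide RNA and on 3 for control RNA, and its mean ratio was -0.04 ± 0.03 (SD, n = 3). Neither dim probe entered the comparison. The sources used here do not give which part of the transcript a probe reads.

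JAG2 (Jagged 2, a ligand of the same family) had ratios of 1.12, -0.07 and 1.00 on slide 1 and 0.35, -0.28 and 0.56 on slide 2 with its brightest probe, EMBV3_31433. Areas 1 and 3 were above 0 and area 2 below on both slides. The mean was 0.44 ± 0.54 (SD, n = 3, limma adjusted p = 0.533), a difference within the spread of the replicates. Its other probes, EMBV3_02982 and EMBV3_37515, were above background for both RNAs on all arrays and had 0.01 ± 0.06 and -0.05 ± 0.14. DLL1, a Delta-type ligand, was not above background for either RNA on any array, so that its ratio was not tested.

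Of the receptors, NOTCH1 had probes that differed in their ratios. EMBV3_14161, the brightest, had 1.16, 0.08 and 1.32 on slide 1 and 0.31, -0.37 and 0.69 on slide 2, with a mean of 0.53 ± 0.60 (SD, n = 3, limma adjusted p = 0.505). EMBV3_17058 had 2.40, 0.70 and 2.40 on slide 1 and 1.84, 0.16 and 1.82 on slide 2, all above 0. Control RNA was above background on 5 of 6 arrays, not on slide 2 area 1. Its mean was 1.55 ± 0.97 (SD, n = 3), with an unadjusted p of 0.0307 and an adjusted p of 0.294 in a limma fit of the 31769 kept probes, made after its values were seen.

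In area 2, where EMBV3_17058 had its lowest ratios, its control intensities were 482 and 383 on slides 1 and 2. In areas 1 and 3 its control intensities ran from 104 to 204, with cetrotide intensities from 449 to 713. The ratio of this probe was therefore small where control RNA was bright. EMBV3_34844 lay close to background, with control RNA above it on 5 of 6 arrays, and had 0.04 ± 0.06. EMBV3_14161 and EMBV3_17058 had their lowest ratios in area 2 on both slides, as had both Jagged genes.

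NOTCH2, the receptor known from mouse granulosa cells, was bright in both RNAs. Its intensities were 9330, 9860 and 13400 for cetrotide RNA on slide 1, against 11700, 12000 and 10500 for control RNA. On slide 2 they were 9560, 9050 and 14100 for cetrotide RNA, against 10600, 11000 and 11300 for control RNA. The RNAs overlapped: cetrotide RNA was brighter in area 3 and dimmer in areas 1 and 2, on both slides. The replicate ratios were -0.17, -0.28 and 0.58, the mean 0.04 ± 0.47 (SD, n = 3), and the 95% interval -0.61 to 0.69 (limma adjusted p = 0.954). Without replicate 3 the mean was -0.23.

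**Figure D3:**
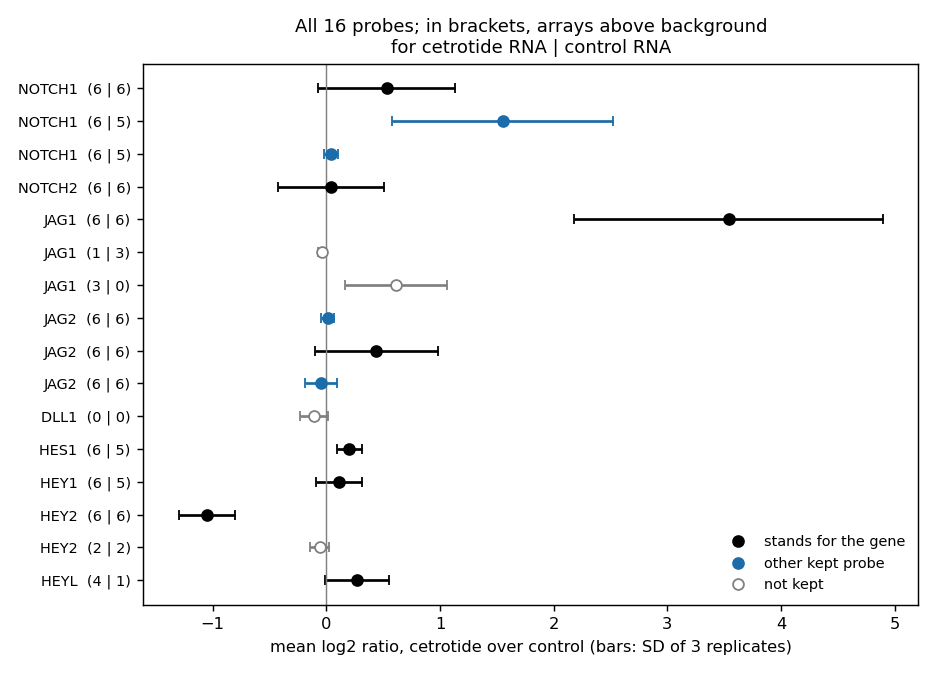
Mean log2 ratio of cetrotide over control with the SD of the 3 replicates for all 16 probes of the members. Brackets give the number of arrays above background for cetrotide RNA and for control RNA, black points the probe that stands for its gene, blue points other kept probes and open points probes that were not kept. The 3 NOTCH1 probes spread from 0.04 to 1.55, and only 1 JAG1 probe was kept.

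Of the target genes, HEY2 (a repressor of the hairy family, also known from arteries and heart) was lower in cetrotide RNA on each array. With probe EMBV3_30043 cetrotide RNA had intensities of 355, 475 and 645 on slide 1, against 943, 752 and 1370 for control RNA. On slide 2 it had 550, 440 and 643 for cetrotide RNA, against 1010, 705 and 1430 for control RNA. All cetrotide values were below the lowest control value, 705, in scanner values not normalised between arrays or dyes. The share of all features separated in this way was not counted. After normalisation the RNAs overlapped across arrays. The log2 level was 9.42 for cetrotide RNA on slide 1 area 3 and 9.16 for control RNA on slide 1 area 2. Averaged per replicate, log2 levels ran from 8.54 to 9.15 in cetrotide RNA and from 9.35 to 10.18 in control RNA. Both RNAs were above background on all 6 arrays.

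The ratios of HEY2 were -1.08, -0.38 and -0.61 on slide 1 and -1.54, -1.23 and -1.46 on slide 2. The replicates had -1.31, -0.80 and -1.04, which gives -1.05 ± 0.25 (SD, n = 3), or 2.07-fold lower, with a 95% interval of -1.43 to -0.67. Limma gave an unadjusted p of 0.00234 and an adjusted p of 0.178. A smaller ratio was found for 168 of 27429 features. The SD leaves out the difference between the slides, whose means were -0.69 and -1.41 (dye term 0.36, limma adjusted p = 0.00166). In the fit with the replicate block HEY2 passed (adjusted p = 0.0393), where 0.962% of all features passed as lower. On slide 2 alone, where the dye effect does not cancel, its limma adjusted p was 0.0409, and 225 of 27429 features were called lower. On slide 1 alone its adjusted p was 0.268. The other HEY2 probe, EMBV3_34416, was above background on 2 arrays for each RNA and had -0.06 ± 0.08.

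HES1, the best known Notch target, encodes a repressor of transcription and gave opposite signs on the slides. It had -0.26, -0.61 and -0.32 on slide 1 and 0.66, 0.79 and 0.94 on slide 2, so that after normalisation the Cy3 dye was the brighter on all 6 arrays, whichever RNA it carried. The dye term was -0.60 (limma adjusted p = 0.000278), 3 times the size of the mean ratio of 0.20 ± 0.11 (SD, n = 3, adjusted p = 0.397). The SD over replicates leaves this difference out. HES1 was dim, and control RNA was below its limit on 1 array, slide 2 area 1.

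HEY1 and HEYL, relatives of HEY2, were also dim. HEY1 had replicate ratios of 0.05, -0.05 and 0.33, a mean of 0.11 ± 0.20 (SD, n = 3, limma adjusted p = 0.725) and intensities close to background, for example 283 for cetrotide RNA on slide 2 area 3, where the limit was 218. HEYL had 0.59, 0.09 and 0.12, with a mean of 0.27 ± 0.28 (adjusted p = 0.504). HEYL was above background for cetrotide RNA on 4 arrays and for control RNA on 1. Ratios so close to background are pulled towards 0 by the offset of 50 used in the background correction. Of the 4 targets among the members, HEY2 alone had both RNAs above background on all 6 arrays.

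The direction of HEY2 was opposite to the positive means of HES1, HEY1 and HEYL, none of which passed the test. The 4 targets had a median of 0.15, and only HEY2 had an unadjusted p under 0.05. The pair of measured ligands had a median of 1.99 and the pair of measured receptors 0.29.

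Of 62 other genes of the pathway, 42 were measured, with a median of 0.04, 26 above 0 and 16 below. DTX1 and AAK1 were kept through cetrotide RNA alone, which favours a ratio above 0, and DTX2 through control RNA alone. None passed the adjusted threshold with limma. An unadjusted p under 0.05 was reached by 6 of the 42, of which 5 were higher and 1 lower, beside 8% and 6.46% of all features. The list was drawn up by role: further ligands and receptors, enzymes that add sugars to Notch, proteases, the nuclear complex, corepressors, ubiquitin ligases, turnover regulators and further targets.

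The Delta ligand DLL4, known from sprouting vessels, had replicate ratios of 1.09, 0.69 and 0.55 and a mean of 0.78 ± 0.28 (SD, n = 3, limma adjusted p = 0.210). It was above 0 on all 6 arrays, with slide means of 0.46 and 1.10 (dye term -0.32, limma adjusted p = 0.00123), a difference that the SD leaves out. DLL4 passed in the fit with the replicate block (limma adjusted p = 0.0483), where 1.5% of all features passed as higher. DLL4 and JAG1 were thus the measured ligands above 0 on all arrays. DLK2, a non-canonical ligand, had 0.08 ± 0.05, and DLL3 and DLK1 had no kept probe.

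Among enzymes that modify Notch, the fringe glycosyltransferase LFNG, which changes how receptors answer Jagged and Delta ligands, had 0.96, 0.29 and 1.58 and a mean of 0.94 ± 0.65 (limma adjusted p = 0.319). POGLUT1, which adds glucose to the EGF repeats of Notch, had -0.54 ± 0.33 (limma adjusted p = 0.306) and was the gene counted as lower. The sheddases ADAM17 and ADAM10 had -0.30 ± 0.26 and 0.03 ± 0.02. Of gamma-secretase, the small subunit PSENEN had 1.18, 1.24 and 0.49 and a mean of 0.97 ± 0.42 (limma adjusted p = 0.225). The other measured subunits, PSEN2, NCSTN, APH1A and APH1B, lay between -0.33 and 0.04.

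In the nucleus, the coactivator MAML2 had 0.63 ± 0.40 (limma adjusted p = 0.306), while its other kept probe had 0.09 ± 0.39. RBPJ, which binds the DNA, had 0.46 ± 0.42 (limma adjusted p = 0.426), with slide means of 0.01 and 0.91. Of the corepressors, the histone deacetylase HDAC1 had 0.61 ± 0.36 (limma adjusted p = 0.296) and the histone demethylase KDM5A 0.36 ± 0.32. The ubiquitin ligases MIB2 and MIB1, which help ligands to signal, had 0.30 ± 0.35 and 0.07 ± 0.16. Of the turnover regulators the lowest p belonged to AAK1 (0.17 ± 0.13) and DTX3L (-0.21 ± 0.21). Of the further targets, HES5 had -0.08 ± 0.11 and HES2 0.02 ± 0.15, both dim.

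**Figure D4:**
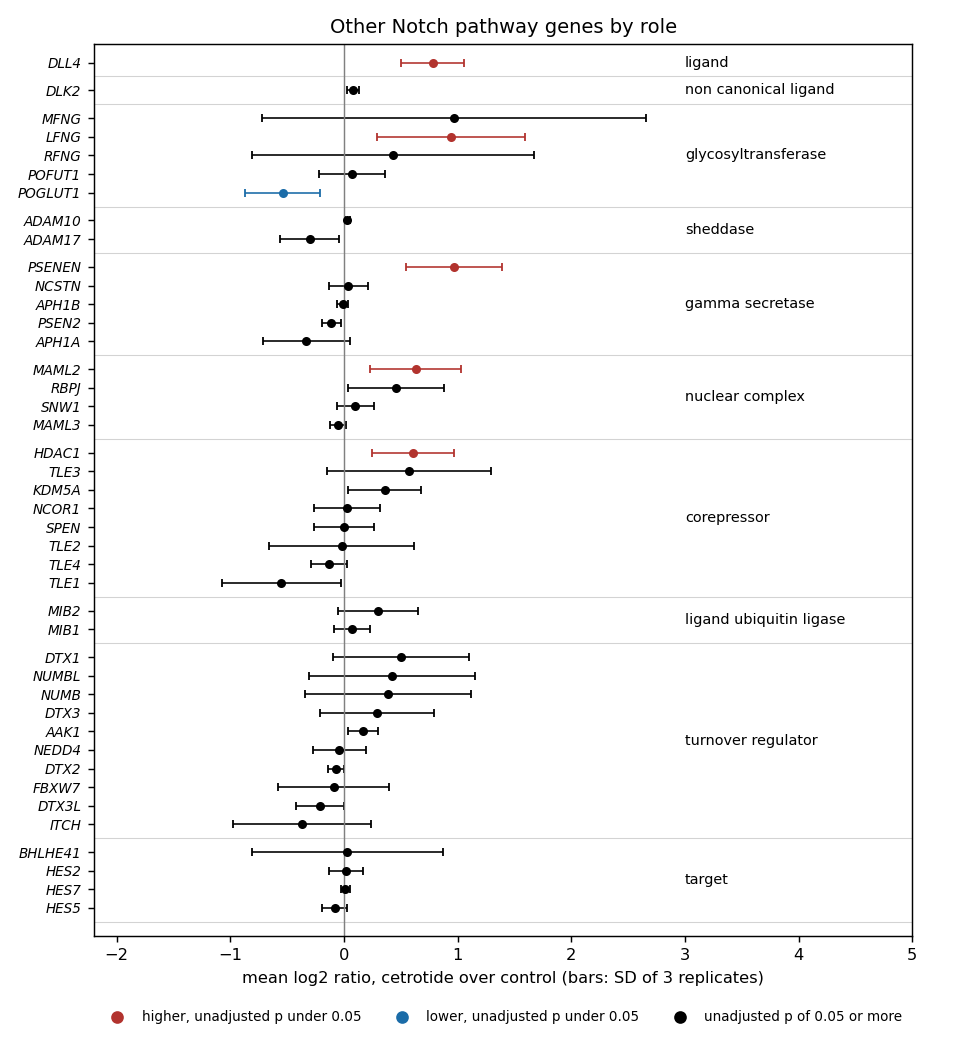
Mean log2 ratio of cetrotide over control with the SD of the 3 replicates for the 42 measured genes of the pathway outside the members, by role. Red points were higher and blue points lower at an unadjusted p under 0.05 with limma. There are 5 red points and 1 blue point, and most means lie near 0.

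Markers of other cell types were set beside the members, since the cells were aspirated in bulk. In such samples more cells of a type and more RNA per cell cannot be told apart. The markers CYP17A1, COL1A2, DES, EMCN, ENG and MUC1 were kept through cetrotide RNA alone, which favours ratios above 0. Granulosa markers were present: 14 of 16 were measured, with 5 above 0 and 9 below. Their summed level per replicate ran from 48100 to 110000 in cetrotide RNA and from 84200 to 111000 in control RNA. FOXL2 and LHCGR had no kept probe. The median granulosa ratio was -0.14, 0.38 and -1.32 in replicates 1, 2 and 3. HEY2 was below 0 in each replicate, as were the granulosa markers NR5A2 and CYP19A1 but no other measured one. The part of granulosa cells in the HEY2 ratio was not tested.

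Endothelial markers had 12 of 14 genes measured, 10 of them above 0, while PECAM1 and TIE1 had no kept probe. Their summed level was 1820 to 7550 in cetrotide RNA and 1850 to 2140 in control RNA. Their median ratio was 0.62, -0.05 and 0.44 in replicates 1, 2 and 3, lowest in replicate 2. The ratios of 7 of the 8 measured members, all but HEY2, were also lowest in replicate 2. HEY2, below 0 in each replicate, was nearest 0 in replicate 2, at -0.80. The share of all features lowest in replicate 2 was not counted, so that this order cannot be read as particular to the members. Medians over all features were -0.01, -0.02 and 0.01. Of the 7 members, HES1, HEY1 and HEYL were dim. In replicate 2 JAG1 had a ratio of 1.98, and single endothelial markers lay on both sides of 0, for example CLDN5 at 0.20 and TEK at -0.16. The part of endothelial cells in the members' ratios was not tested.

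Leukocyte markers (12 of 14 measured, 11 above 0) had medians of 0.40, -0.05 and 0.58 in the 3 replicates and summed levels of 4620 to 5830 in cetrotide RNA and 2000 to 4790 in control RNA. CSF1R was not above background on any array, and LCP1 had no kept probe. Theca markers (10 of 10 measured, 8 above 0) had medians of 1.28, 0.05 and 0.14 and summed levels of 20700 to 76100 in cetrotide RNA and 10900 to 19200 in control RNA. The collagen genes COL1A2 and COL3A1 of the theca list, chosen after their values were seen, were also lowest in replicate 2, as was JAG1. COL1A2 had 7.23, 1.10 and 4.78 in replicates 1, 2 and 3, and COL3A1 had 8.37, 0.40 and 4.98. Of the other theca markers, CYP17A1, INSL3, COL1A1 and DCN were also lowest in replicate 2. LUM, PDGFRA and TCF21 were lowest in replicate 3 and PTCH1 in replicate 1. Mural cell markers, of pericytes and vessel muscle, where Notch targets are also expressed, were 10 of 11 measured, 7 above 0. Their medians were 0.14, 0.15 and -0.06, with summed levels of 9330 to 15400 in cetrotide RNA and 8960 to 17000 in control RNA.

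Epithelial markers (9 of 11 measured, 9 above 0) had medians of 0.78, 1.36 and 3.30, and summed levels of 14500 to 174000 in cetrotide RNA and 1820 to 13900 in control RNA. CDH1 and CLDN3 had no kept probe. The keratin KRT8, also on that list and chosen after its values were seen, had 4.18, 1.71 and 3.30 in replicates 1, 2 and 3, beside 4.41, 1.98 and 4.23 for JAG1. Both were above 0 on all 6 arrays and lowest in replicate 2, while the epithelial median was lowest in replicate 1. Of the other measured epithelial markers, KRT18 and ELF3 were lowest in replicate 2. EPCAM, KRT7, KRT19, CLDN4, ESRP1 and MUC1 were lowest in replicate 1. The part of these cell types in the JAG1 and HEY2 ratios was not tested.

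**Figure D5:**
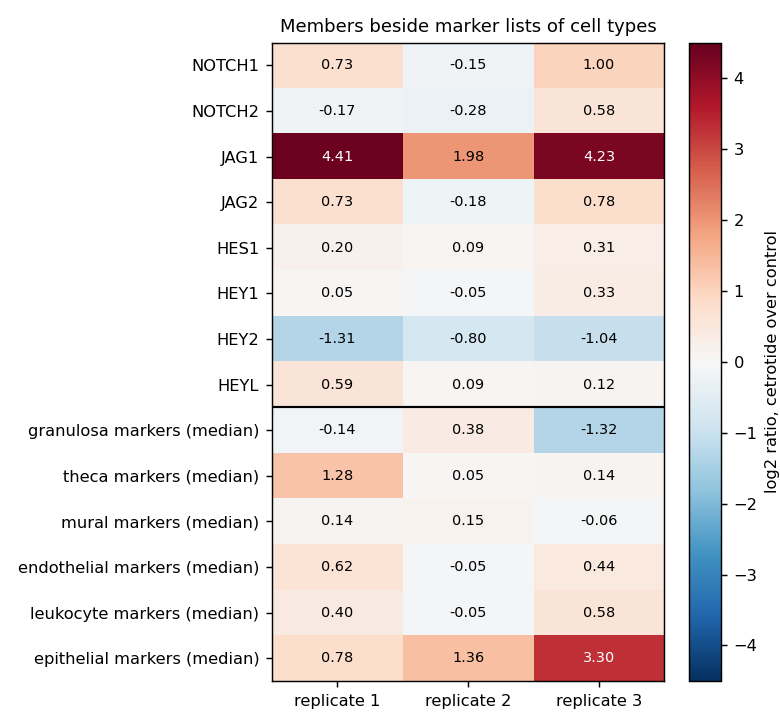
Log2 ratios of cetrotide over control in each replicate for the 8 measured members (upper rows) and the medians of 6 marker lists (lower rows), coloured from blue (below 0) to red (above 0). JAG1 is above 0 and HEY2 below 0 in every replicate. Replicate 2 is the lowest for the 7 members other than HEY2 and for the theca, endothelial and leukocyte medians, while HEY2 is nearest 0 there. The share of all features lowest in replicate 2 was not counted, so that this order cannot be read as particular to the members.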

How the data were processed

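Per the file headers, the deposited scanner tables hold mean and median spot intensity and local background intensity for the Cy3 and Cy5 dyes, without correction. Per the labels' protocols, RNA was amplified over 2 rounds and labelled chemically, which can add spread and dye bias. The authors also deposited log2 ratios (base taken as 2, direction cetrotide over control from their match to the scanner values, r of 0.878 to 0.956), for which the sources used here name no normalization. Their column medians were -0.00191, -0.000108, 0.000134, 0.00229, 0.00214 and 0.00748. Scanner and software are not given either.

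Mean intensities were corrected with normexp (offset 50) and loess-normalized within arrays in limma 3.58.1 (R 4.3.3), tested on simulated data first. Log2 levels of 1 RNA came after Aquantile, and summed levels are sums of these on the linear scale. Probes above background for cetrotide RNA, or for control RNA, on at least 4 of 6 arrays were kept (31769). A gene was represented by its brightest kept probe (mean log2 intensity). Symbols came from the platform annotation, updated through RefSeq synonyms: 21790 gene probes had 1 symbol, 0 several and 22004 none. Across features, the ratios of same-area arrays of the 2 slides correlated at 0.618, 0.434 and 0.759, and those of the other pairs between slides at -0.0294 to 0.304. With each slide's mean taken off, which pushes unmatched pairs below 0, these were 0.900, 0.934 and 0.954, and -0.706 to -0.00759, so same-area arrays were taken as a dye swap and averaged. The averages were tested against 0 by limma (lmFit and eBayes), and p-values were adjusted over 27429 features (Benjamini-Hochberg, threshold 0.05). An exact test on the signs of 3 replicates cannot go below p = 0.25. Labels do not say whether each area holds separate cows, so the p-values speak only of the spread among these samples, which may be technical.

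Members, lists and tests were chosen with earlier results of these data known. All members are named; other pathway genes are named at an unadjusted p under 0.05 or as the pair with the lowest p of their role. Alternatives were no background correction, median centring, median pixels, the deposited ratios, other filters and probe rules, the block fit, single slides and leaving out replicates.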

Additional observations from a re-analysis of the deposited data

How the results depend on the processing

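Over 12 or 13 alternatives per member, 92 of 101 values kept their direction and their side of the adjusted threshold. JAG1 (3.10 to 4.32), HEY2 (-1.41 to -0.69), NOTCH1 (0.21 to 0.87), JAG2 (0.14 to 0.76) and HEYL (0.11 to 0.55) kept their sign in each of these. HEYL was kept through cetrotide RNA alone, which favours a ratio above 0. These alternatives include the mean over all kept probes of a gene, which gave 0.14 for JAG2, but no other probe by itself. The 3 values that gained a call were JAG1 and HEY2 with the replicate block and HEY2 on slide 2 alone. The sign turned for NOTCH2 with median centring (-0.12), on slide 2 alone (-0.01) and among fits without 1 replicate (-0.23 to 0.20), for HES1 (-0.40) and HEY1 (-0.04) on slide 1 alone, for HEY1 without 1 replicate (0.00 to 0.19), and for JAG2 with another of its probes (-0.05), an alternative chosen after seeing the data. The cause was not tested. With the replicate block, 411 features were called higher and 264 lower, against 0 and 0 with limma on the averages. Slide 2 alone gave 662 and 225, and 4113 and 3749 at an unadjusted p under 0.05, where dye effects do not cancel. Leaving out a replicate gave 1172 to 3016 higher and 761 to 1764 lower at that limit. With the authors' deposited ratios JAG1 had 3.28. The members' median ran from 0.13 to 0.44. The lack of signal above background limits DLL1, and dim signal limits HES1, HEY1 and HEYL.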
